A study of Mus musculus with 6 samples.

Results

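Dexamethasone, a synthetic glucocorticoid, was compared with its PBS control in MC3T3-E1 Subclone 14 cells, an osteoblast precursor line derived from 1 clone of mouse calvarial cells. The comparison used 4 of the 6 RNA sequencing libraries of the series: 2 of cells given 100 µL PBS (control) and 2 of cells given 10 µM dexamethasone, each for 72 hours. The series text names fibroblasts and a shorter exposure, and the sample labels were followed. The other 2 libraries, of cells that also received extracellular vesicles of endothelial progenitor cells (EPC-EVs), were not part of it. The study concerned what EPC-EVs do in steroid-induced osteoporosis, and the comparison described here is of the steroid alone with its control. The members are genes, 21686 in the table, of which 12879 had enough reads to be tested.

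Dexamethasone enters cells and binds the glucocorticoid receptor (Nr3c1), which moves to the nucleus, binds DNA at glucocorticoid response elements and switches on genes such as Fkbp5, Tsc22d3 (GILZ) and Per1. The same receptor restrains AP-1 and NF-κB, and with them chemokines, prostaglandin synthesis and matrix proteases. In bone, glucocorticoids are known to limit the differentiation and survival of osteoblasts and to shift the signals that osteoblasts send to osteoclasts.

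Levels are given for each library, replicate 1 first, as CPM, the library's read count scaled to a common total after TMM normalization. Total counts were 6126888 and 5146760 in control and 6583735 and 6575094 in dexamethasone. A gene with no read could still stand for as many as 3 reads, which is 0.444 to 0.611 CPM, for counting error only. A log2 fold change is dexamethasone over control with its standard error (SE), and calls are genes with an adjusted p under 0.05 (edgeR's quasi-likelihood test, Benjamini-Hochberg over all 12879 genes). The labels do not say that the libraries came from separate cultures, whereas the study speaks of biological replicates. If they do not, p-values measure only the spread between these libraries.

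Control replicate 2 stood apart from the other libraries. Its log2 CPM correlated with those of the others at a Pearson's r of 0.918 to 0.93 over 12879 genes, against 0.952 to 0.962 among the other 3 libraries. These are correlations across genes, which are not independent replicates. Levels in control replicate 2 also followed the base composition of the transcripts. Its median deviation from the mean of the 4 libraries fell from 0.276 log2 units in the tenth of genes with the lowest GC content to -0.414 in the tenth with the highest. Across the same groups of genes, the median log2 fold change went from -0.26 to 0.42, and from -0.11 to 0.24 without control replicate 2. The called genes and the gene lists are therefore also given without this library, and with the GC and length trend taken out of each library, beside the values from all 4. A fold change of another gene in parentheses is followed by these values, or by that without control replicate 1, where they differ from it by over 1.5 times. With either control library left out, control is a single library, which is assumed to vary like the dexamethasone pair.

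**Figure D1:**
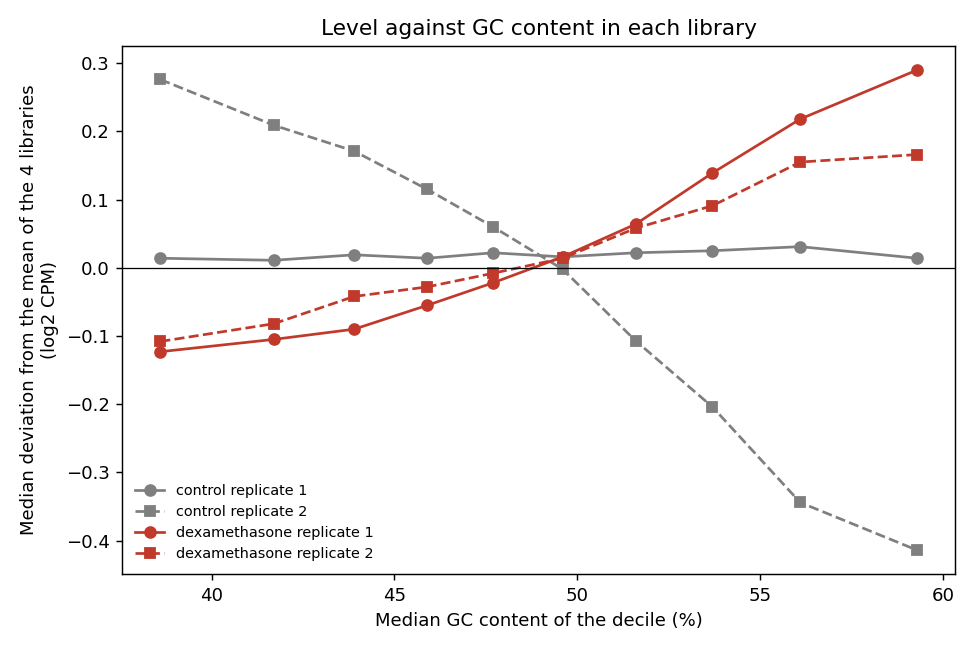
Median deviation of each library from the mean of the 4 libraries (log2 CPM, vertical axis) in 10 groups of genes ordered by GC content (median of the group in percent, horizontal axis). Control replicate 2 runs from 0.276 down to -0.414, dexamethasone replicate 1 from -0.123 up to 0.29, and control replicate 1 stays between 0.011 and 0.031.

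The test called 7 genes, 0.0544% of those tested, of which 2 were higher and 5 lower in dexamethasone. DESeq2 called 134 genes (1.04%), 44 higher and 90 lower, and all 7 were among them. At an unadjusted p under 0.05, 722 genes (5.61%) were higher and 687 (5.33%) lower, and these 2 shares are the background of the list counts from all 4 libraries. List counts without control replicate 2 at that threshold cover only genes also tested from all 4 libraries. The shares given below for that fit are over more genes, so they are only a near background. The threshold of the study's methods, which adds a log2 fold change beyond 1.5, was passed by 107 genes upwards (0.831%) and 75 downwards (0.582%). Both dexamethasone libraries lay above both control libraries for 22.6% of genes and below both for 21.6%. Without control replicate 2, 113 genes were called (0.826%), 71 of them shared with the DESeq2 calls, and at an unadjusted p under 0.05 the shares were 6.41% higher and 5.13% lower. Without control replicate 1, 2200 genes were called, among them 87 of 105 genes given with a fold change here, and 9 and 17 without dexamethasone replicate 1 and 2. With the GC trend removed the shares at an unadjusted p under 0.05 were 4.06% and 4.12%, and 1 gene was called. The median log2 fold change over all genes was 0.01. Scaling by library totals alone, without TMM, moved the split at an unadjusted p under 0.05 from 722 higher and 687 lower to 993 and 466, and limma on the FPKM to 1030 and 434.

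None of the best-known glucocorticoid-induced genes passed the test. The libraries of Fkbp5, Tsc22d3, Per1 and Sgk1 overlapped between the groups, and those of Dusp1 did not, with lower levels in dexamethasone. Fkbp5, a cochaperone of the receptor that is among its most widely induced targets, was at 19.1 and 24.4 CPM in control and 30.01 and 22.6 CPM in dexamethasone. The libraries overlapped, and the log2 fold change was 0.28 ± 0.32 (SE), with a 95% interval of -0.42 to 0.97. It was 0.47 without control replicate 2, 0.12 without control replicate 1 and 0.18 with the GC trend removed. Tsc22d3, an anti-inflammatory leucine zipper protein, stood at 36.3 and 25.3 CPM in control and 26.02 and 32.03 CPM in dexamethasone, again overlapping, with an interval of -0.74 to 0.57. Per1, a clock gene with a receptor binding site, had 72.1 and 107 CPM in control and 83.5 and 95.3 CPM in dexamethasone and an interval of -0.49 to 0.49. The kinase gene Sgk1 had 236 and 149 CPM in control and 163 and 161 CPM in dexamethasone, the dexamethasone pair lying between the control pair. Zbtb16, usually near silent before glucocorticoids and strongly induced by them, was counted 4 and 0 times in control and 0 times in both dexamethasone libraries. The upper ends of the 95% intervals were thus log2 fold changes of 0.97 for Fkbp5, 0.57 for Tsc22d3 and 0.49 for Per1. The treatment labels thus have no check from these genes, and every fold change given here is of the libraries labelled dexamethasone over those labelled control.

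Of the 22 genes listed as receptor, enzymes of steroid metabolism and induced targets, 16 were tested and none was called by edgeR or DESeq2. At an unadjusted p under 0.05, Ddit4 was higher, and 4 genes, Nr3c1, Dusp1, Errfi1 and Lcn2, were lower, beside 5.61% and 5.33% of all genes. The smallest adjusted p of the list was 0.361 and the median log2 fold change -0.06. For the glucocorticoid list, 0 were higher and 4 lower without control replicate 2 (median -0.24), and 0 and 2 with the GC trend removed (median -0.20). Ddit4, an inhibitor of mTOR, went from 28.4 and 19.1 CPM to 43.02 and 33.5 CPM (log2 fold change 0.68 ± 0.30, 0.44 without control replicate 2, 0.34 with the GC trend removed). Dusp1, the phosphatase of MAP kinases through which glucocorticoids dampen inflammation, was lower without overlap, at 96.6 and 95.9 CPM in control and 66.97 and 74.6 CPM in dexamethasone. Errfi1, an inhibitor of the EGF receptor, was at 242 and 176 CPM in control and 166 and 124 CPM in dexamethasone (log2 fold change -0.53 ± 0.20, adjusted p = 0.404). Its log2 fold change was -0.73 without control replicate 2 and -0.26 without control replicate 1. The receptor itself was well expressed, with 193 and 258 CPM in control and 166 and 175 CPM in dexamethasone. Hsd11b1, which activates endogenous glucocorticoids, was not tested and was counted 6 and 0 times in control and 3 and 0 times in dexamethasone. The log2 fold change of Per1 was -0.01 with RLE normalization or DESeq2 and -0.44 with the GC trend removed, so it has no direction.

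The full palindrome of the receptor's binding site was taken here as AGAACA and TGTTCT 3 bases apart. It was present in 1 of 14 listed genes with a RefSeq promoter window (7.14%), against 3 of 27025 genes with such windows (0.0111%). The windows run from 250 bases before to 50 after the start. With so few matches the shares cannot be compared. The listed gene with the match was Sgk1. The stretch, chr10:21993671-21993745 on GRCm38.p6, plus strand, is shown because it is the sole match among the listed genes. The capitals mark both half-sites and the 3 bases between them, beginning 189 bases before the start.
Sgk1: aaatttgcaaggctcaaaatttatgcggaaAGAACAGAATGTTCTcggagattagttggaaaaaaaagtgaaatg
A match describes the letters only. The 95% interval of the log2 fold change of Sgk1 was -0.71 to 0.21.

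**Figure D2:**
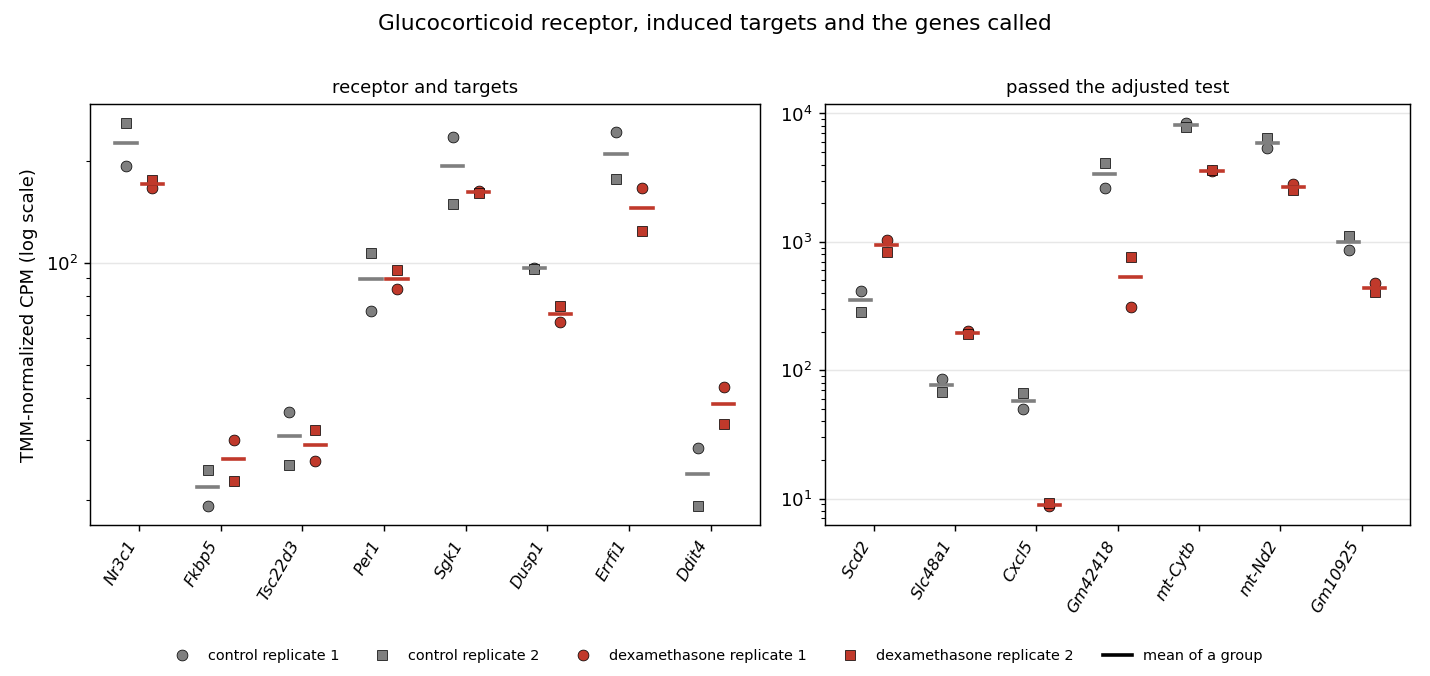
TMM-normalized CPM (log axis) in each library for the glucocorticoid receptor and 7 of its targets (left) and the 7 genes called at an adjusted p under 0.05 (right). Circles are replicate 1, squares replicate 2, bars group means. Fkbp5, Tsc22d3, Per1 and Sgk1 overlap between the groups, whereas the 7 called genes do not.

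The libraries carried matrix and osteoblast lineage transcripts, with few reads of several markers of mature cells. Spp1 (osteopontin) was at 10386 and 11578 CPM in control and 10858 and 10694 CPM in dexamethasone, Col1a1, a chain of type I collagen, at 2234 and 2584 CPM in control and 2466 and 2940 CPM in dexamethasone, Col1a2 at 2333 and 2664 CPM in control and 2782 and 2783 CPM in dexamethasone, and Runx2, the master regulator of the lineage, at 205 and 184 CPM in control and 155 and 168 CPM in dexamethasone. None of these passed the test. The log2 fold changes of Col1a1 and Col1a2 were 0.17 ± 0.14 and 0.16 ± 0.13, and -0.17 and -0.09 with the GC trend removed. That of Spp1 was -0.03 ± 0.12, and 0.05 when scaled by library totals, so no direction is given for these 3 genes. Several markers of mineralizing osteoblasts were close to the limit of detection. Alpl (alkaline phosphatase) had 11 and 16 reads in control and 5 and 0 reads in dexamethasone, Bglap (osteocalcin) 9 and 14 reads in control and 11 and 0 reads in dexamethasone, and Ibsp 2 and 12 reads in control and 5 and 4 reads in dexamethasone. Of the 12 osteoblast markers, 10 were tested, and their summed level was 17200 to 20100 CPM in control and 18500 to 19000 CPM in dexamethasone.

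Markers of other cells were low, apart from Cd34 and Sox9. The 9 endothelial markers with a row summed to 369 to 423 CPM in every library, nearly all from Cd34, which stromal cells also express, whereas Cdh5, Emcn and Prom1 had at most 2 reads in any library. The 9 leukocyte and macrophage markers with a row summed to 24.9 and 21.6 CPM in control and 22.3 and 28.2 CPM in dexamethasone, with Adgre1 at no more than 1 read. Epithelial markers reached at most 1.16 CPM, muscle markers at most 7.54 CPM, and adipocyte markers at most 0.165 CPM. Chondrocyte markers summed to 216 to 335 CPM, almost all of it Sox9. Col2a1, another of them, was at 22.4 and 16.1 CPM in control and 24.4 and 12.8 CPM in dexamethasone, above Alpl, Bglap and Ibsp. In bulk samples of this kind, fewer cells of a type cannot be told apart from less RNA per cell.

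Scd2 and Slc48a1 were the 2 genes that rose. Scd2, a stearoyl-CoA desaturase that makes monounsaturated fatty acids (chr19:44293674-44306864, plus strand, GRCm38), went from 416 and 283 CPM to 1039 and 837 CPM, a log2 fold change of 1.42 ± 0.20 (adjusted p = 0.0412). Slc48a1, the heme transporter HRG1 that brings heme from lysosomes to the cytosol (chr15:97778520-97792692, plus strand), went from 84.8 and 67.6 CPM to 201 and 192 CPM, a log2 fold change of 1.36 ± 0.18 (adjusted p = 0.0386). For each gene both dexamethasone libraries lay well above both control libraries. Both genes kept an adjusted p under 0.05 without control replicate 2, at 1.66e-08 and 3.38e-06. Neither did with the GC trend removed, at adjusted p of 0.065 and 0.0824 (log2 fold changes of 1.44 and 1.05), nor with mitochondrially encoded genes left out, at 0.0636 for each. Slc48a1 overlaps Hdac7 on the other strand, and its count is less certain because the sources do not say whether HTSeq used strand.

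The 5 genes that fell were a chemokine, 2 mitochondrial genes and 2 noncoding loci. Cxcl5, a chemokine that attracts neutrophils (chr5:90759360-90761624, plus strand), went from 50.01 and 66 CPM to 8.72 and 9.24 CPM, a log2 fold change of -2.69 ± 0.29 (adjusted p = 0.0132). It was also called without control replicate 2 (-2.47, adjusted p = 3.59e-06). mt-Cytb, a subunit of respiratory complex III encoded by mitochondrial DNA, went from 8416 and 7897 CPM to 3546 and 3640 CPM (log2 fold change -1.18 ± 0.12, adjusted p = 0.0132). mt-Nd2, of complex I, went from 5355 and 6394 CPM to 2821 and 2546 CPM (log2 fold change -1.13 ± 0.14, adjusted p = 0.0309). Gm10925, annotated as an unprocessed pseudogene (chr1:24613974-24614651, minus strand), lies in a nuclear copy of mitochondrial DNA and went from 869 and 1110 CPM to 475 and 404 CPM (log2 fold change -1.17 ± 0.16, adjusted p = 0.0414). Its reads share sequence with the mitochondrial genome, so its count is uncertain. Gm42418, a lincRNA locus that holds ribosomal RNA sequence (chr17:39846958-39848788, plus strand), went from 2634 and 4136 CPM to 308 and 761 CPM (log2 fold change -2.66 ± 0.36, adjusted p = 0.0386). The dexamethasone values of Gm42418 differed widely from each other, and without control replicate 2 its log2 fold change was -2.29 with an adjusted p of 0.671. Without control replicate 1 these were -2.93 and 0.356. With the GC trend removed Cxcl5 was the sole gene called (-2.42, adjusted p = 0.043). The log2 fold changes of mt-Cytb, mt-Nd2 and Gm10925 were then -0.81, -0.65 and -0.70, with adjusted p of 0.151, 0.145 and 0.0872, and that of Gm42418 was -3.14 (adjusted p = 0.385). Without control replicate 2, mt-Cytb, mt-Nd2 and Gm10925 were called. Without dexamethasone replicate 2, all 3 missed the threshold, at adjusted p of 0.0609, 0.18 and 0.16, and without dexamethasone replicate 1 mt-Cytb and mt-Nd2 did, at 0.104 and 0.0677.

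By size, the positive fold changes were led by genes with few reads. The 12 largest, among genes with an unadjusted p under 0.05, a mean of at least 5 CPM and no overlap, ran from Klf16 to Kctd2. Klf16, a Krüppel-like transcription factor, had 9 and 2 reads in control and 41 and 118 reads in dexamethasone (log2 fold change 3.57 ± 0.81). Rtca, an RNA cyclase, had 13 and 8 reads in control and 84 and 69 reads in dexamethasone (2.57 ± 0.59). Slc25a10, the mitochondrial dicarboxylate carrier, had 26 and 22 reads in control and 147 and 116 reads in dexamethasone (2.15 ± 0.45), and Slc22a4, a carrier of ergothioneine and carnitine, had 6 and 12 reads in control and 68 and 52 reads in dexamethasone (2.38 ± 0.71). Gm5577, an antisense locus, had 6 and 18 reads in control and 68 and 114 reads in dexamethasone (2.56 ± 0.67), and its reads cannot be separated from overlapping genes without the strand. Osgin1, an NRF2-responsive growth inhibitor, had 47 and 0 reads in control and 125 and 138 reads in dexamethasone (2.28 ± 0.93, 1.33 without control replicate 2, with no fold against control replicate 2 alone). The other 6 were Plekhh3, Narfl, Ogfod3, Dcaf15, Gatsl3 and Kctd2. None of the 12 was called from all 4 libraries, and their median GC content was 56.7%, against 48.6% over all genes. Control replicate 2 had the lower of the 2 control values in all but Gm5577, Slc22a4 and Slc25a10 among these 12 by CPM.

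The 12 largest negative fold changes included 2 neighbouring chemokine genes, Ppbp and Cxcl5. Ppbp, which encodes the CXCL7 precursor (chr5:90768518-90770063, plus strand), lies next to Cxcl5 and had 24.1 and 12.8 CPM in control and 1.48 and 3.28 CPM in dexamethasone (log2 fold change -2.95 ± 0.58, adjusted p = 0.172). Without control replicate 2 it was called (-3.33, adjusted p = 0.000137). Cstad, a mitochondrial protein gene that depends on calcineurin, had 15.5 and 12.2 CPM in control and 2.37 and 1.19 CPM in dexamethasone (-2.95 ± 0.59) and was also called without that library (adjusted p = 0.0053). Fam228b had 5.28 and 14.7 CPM in control and 0.296 and 1.64 CPM in dexamethasone (-3.33 ± 0.90). Lars2, the mitochondrial leucyl-tRNA synthetase, had 97.4 and 232 CPM in control and 26.3 and 35.01 CPM in dexamethasone (log2 fold change -2.42 ± 0.35), and its adjusted p of 0.051 just missed the threshold. The remaining members were Cxcl5, Gm42418 and 6 lincRNA, sense intronic or TEC (to be experimentally studied) loci, and the median GC content of the 12 was 42.7%.

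Genes of lipid synthesis had mostly positive fold changes. In cells, SREBP-2 (Srebf2) drives cholesterol synthesis, and SREBP-1 (Srebf1) drives fatty acid synthesis. Of 23 tested genes of cholesterol synthesis, uptake and efflux, 22 had a positive fold change, and 11 were higher at an unadjusted p under 0.05 with none lower, beside 5.61% and 5.33% of all genes. In 19 of the 23 both dexamethasone libraries lay above both controls, as they did for 22.6% of all genes. The median log2 fold change was 1, against 0.01 for all genes. None was called (smallest adjusted p = 0.109), whereas DESeq2 called 6, all higher. Without control replicate 2, 6 were called. For the cholesterol list, 13 were higher and 0 lower without control replicate 2 (median 0.71), and 12 and 0 with the GC trend removed (median 0.89).

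Srebf2 itself was at 72.3 and 36.1 CPM in control and 183 and 143 CPM in dexamethasone (log2 fold change 1.59 ± 0.29, DESeq2 adjusted p = 3.49e-05). Cyp51, lanosterol demethylase, was at 67.2 and 49.9 CPM in control and 143 and 99.5 CPM in dexamethasone (1.05 ± 0.24), and Sqle, which commits squalene to sterols, at 64.7 and 42.2 CPM in control and 109.7 and 96.98 CPM in dexamethasone (0.95 ± 0.23). Both genes were also called by DESeq2, with adjusted p of 0.0123 and 0.0313, and by edgeR without control replicate 2 had 0.0198 and 0.0808. In both, and in Srebf2, the groups did not overlap. Hmgcs1, the synthase at the head of the pathway, was at 61.2 and 93.1 CPM in control and 124 and 93.4 CPM in dexamethasone (0.50), and ranged from 0.24 without control replicate 1 (adjusted p = 0.421) to 0.83 without control replicate 2 (adjusted p = 0.0251). Abca1, which exports cholesterol and answers to another factor, LXR, was at 3.63 and 1.02 CPM in control and 10.2 and 6.85 CPM in dexamethasone (1.84, 3.06 without control replicate 1) on few reads.

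The sterol response element, searched as TCACNCCAC on both strands, was found in 1 of the 17 matched promoters of this list (5.88%), that of Hmgcs1, and in 1.44% of all. It is shown because it is the sole match of the sterol list, at chr13:119690184-119690252 on GRCm38.p6, plus strand, with the motif in capitals beginning 137 bases before the start.
Hmgcs1: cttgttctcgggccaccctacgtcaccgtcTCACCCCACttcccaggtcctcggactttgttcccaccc
No match says only that these letters are not in this window.

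Of 17 tested fatty acid genes, 16 had a positive fold change and 6 were higher at an unadjusted p under 0.05 (5.61% of all genes), with none lower and a median of 0.42. Scd2 was the 1 called, DESeq2 called 5, and 6 were called without control replicate 2. For the fatty acid list, 8 were higher and 0 lower without control replicate 2 (median 0.32), and 8 and 0 with the GC trend removed (median 0.35). Fasn, the fatty acid synthase, was at 128 and 75.8 CPM in control and 279 and 199 CPM in dexamethasone (log2 fold change 1.22 ± 0.25, DESeq2 adjusted p = 0.000534). Scd1, the second desaturase, was at 285 and 266 CPM in control and 538 and 458 CPM in dexamethasone (0.85 ± 0.15, DESeq2 adjusted p = 0.000125). Acly, which makes cytosolic acetyl-CoA, was at 119 and 90.03 CPM in control and 212 and 158 CPM in dexamethasone (0.82 ± 0.21), and Fads1, a desaturase of polyunsaturated fatty acids, at 159 and 125 CPM in control and 259.9 and 224 CPM in dexamethasone (0.77 ± 0.18). Every one of these 4 genes had both dexamethasone values above both control values. The 10 tested genes of adipocyte differentiation and lipid storage had 0 members at an unadjusted p under 0.05 in either direction (smallest adjusted p = 0.492), with a median of 0.43 that was 0.11 without control replicate 2 and 0.29 with the GC trend removed.

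Antioxidant genes include many targets of the transcription factor NRF2 (Nfe2l2). Of 35 tested genes of glutathione, thioredoxin and NRF2, 29 had a positive fold change, 12 were higher at an unadjusted p under 0.05 beside 5.61% of all genes, and 1, Nfe2l2 itself, was lower (374 and 375 CPM in control and 289.8 and 303 CPM in dexamethasone). The median log2 fold change was 0.36. None was called by edgeR (smallest adjusted p = 0.051), DESeq2 called 5, all higher, and 4 were called without control replicate 2. For the antioxidant list, 15 were higher and 2 lower without control replicate 2 (median 0.33), and 12 and 1 with the GC trend removed (median 0.30). Prdx1, a peroxiredoxin that removes hydrogen peroxide, was at 168 and 153 CPM in control and 344 and 312 CPM in dexamethasone (log2 fold change 1.03 ± 0.15, DESeq2 adjusted p = 3.39e-06). Nqo1, a quinone reductase and the standard NRF2 target, was at 57.3 and 49.7 CPM in control and 119.6 and 115 CPM in dexamethasone (1.13 ± 0.19, DESeq2 adjusted p = 0.000399). The dexamethasone libraries of both genes lay close together and well above control.

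Glutathione synthesis begins with glutamate-cysteine ligase, made of a catalytic and a modifier subunit. Gclc, the catalytic subunit, was at 101 and 125 CPM in control and 169 and 202 CPM in dexamethasone (log2 fold change 0.72 ± 0.18), and Gclm, the modifier, at 22.4 and 27.1 CPM in control and 48.8 and 51.7 CPM in dexamethasone (1.02 ± 0.25). Both were called without control replicate 2, with adjusted p of 0.000881 and 0.0197. Gss, the second enzyme of the pathway, was at 17.7 and 20.4 CPM in control and 25.1 and 19.1 CPM in dexamethasone (0.22 ± 0.33, 0.33 without control replicate 2, 0.13 without control replicate 1), with overlapping libraries. Slc1a5, a glutamine carrier, was at 9.24 and 5.5 CPM in control and 25.4 and 25.6 CPM in dexamethasone (1.78 ± 0.40).

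The core of the antioxidant response element, TGACNNNGC on either strand, occurred in 9 of the 29 matched promoters of this list (31%), against 14% of all promoters. Those of Prdx1 and Gclm are shown because these genes were among the 5 members of the list with the smallest p. The capitals mark the core, read on the other strand. They lie at chr4:116685436-116685504 and chr3:122245393-122245461 on GRCm38.p6, plus strand, and the cores begin 133 and 134 bases before the start.
Prdx1: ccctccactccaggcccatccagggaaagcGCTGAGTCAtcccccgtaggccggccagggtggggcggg
Gclm: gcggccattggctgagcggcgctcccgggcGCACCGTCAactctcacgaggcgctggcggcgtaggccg
For the ferroptosis and the heme and iron genes the shares with the core were 21.4% of 14 and 18.8% of 16 promoters.

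Ferroptosis is a form of cell death driven by iron and lipid peroxides, held in check by glutathione peroxidase 4 (Gpx4) and by the cystine importer system Xc-, made of Slc7a11 and Slc3a2. Of the 18 ferroptosis genes that the study names, 16 were tested, and none was called by edgeR (smallest adjusted p = 0.109), whereas DESeq2 called 2, Hmox1 and Gpx4. The list was chosen by the study on these samples, so its counts are not independent evidence of a direction. At an unadjusted p under 0.05, 3 were higher, Hmox1, Gpx4 and Slc7a11, and none was lower, beside 5.61% and 5.33% of all genes. The median log2 fold change was 0.24, and also 0.24 without control replicate 2, where 1 gene was called. With the GC trend removed 5 were higher and the median was 0.19.

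Gpx4 was at 31.7 and 12.6 CPM in control and 57.95 and 52.4 CPM in dexamethasone, with a log2 fold change of 1.304 ± 0.37 (SE) and a 95% interval of 0.49 to 2.12. Its DESeq2 adjusted p was 0.0481. Both dexamethasone libraries were above both control libraries, and control replicate 2 was the lowest. Without it the log2 fold change was 0.81 (adjusted p = 0.113), and without control replicate 1 it was 2.14 (adjusted p = 4.79e-07). Slc7a11 was at 11.2 and 6.11 CPM in control and 21.7 and 18.2 CPM in dexamethasone (1.19 ± 0.43, interval 0.24 to 2.15), and Slc3a2 at 156 and 143 CPM in control and 189.5 and 172 CPM in dexamethasone, also without overlap (adjusted p = 0.551). Hmox1, heme oxygenase 1, which frees iron from heme and is another NRF2 target, was at 95.4 and 57.4 CPM in control and 191 and 179.5 CPM in dexamethasone (1.27 ± 0.23, DESeq2 adjusted p = 0.000115). Slc40a1 (ferroportin) and Slc39a8 were not tested, with at most 5 reads in any library.

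Heme and iron genes included Slc48a1. Of 21 tested, 4 were higher and 1 lower at an unadjusted p under 0.05, with a median of 0.16. For the heme and iron list, 4 were higher and 2 lower without control replicate 2 (median 0.11), and 3 and 1 with the GC trend removed (median 0.19). Ftl1, the ferritin light chain, was at 153 and 95.9 CPM in control and 295 and 281 CPM in dexamethasone (log2 fold change 1.21 ± 0.21, DESeq2 adjusted p = 3.66e-05). The heavy chain, Fth1, was at 4065 and 4556 CPM in control and 4972 and 5219 CPM in dexamethasone, without overlap but with an adjusted p of 0.515. Blvrb, a biliverdin reductase downstream of heme oxygenase, was at 77.1 and 60.1 CPM in control and 116 and 101 CPM in dexamethasone (0.66 ± 0.20). Of the enzymes of heme synthesis, Cpox was lower, at 125 and 192 CPM in control and 65.9 and 92.5 CPM in dexamethasone (-0.996 ± 0.24, -0.65 without control replicate 2), and Ppox, the next enzyme, higher, at 32.5 and 33.2 CPM in control and 43.02 and 63.9 CPM in dexamethasone (0.70 ± 0.26).

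**Figure D3:**
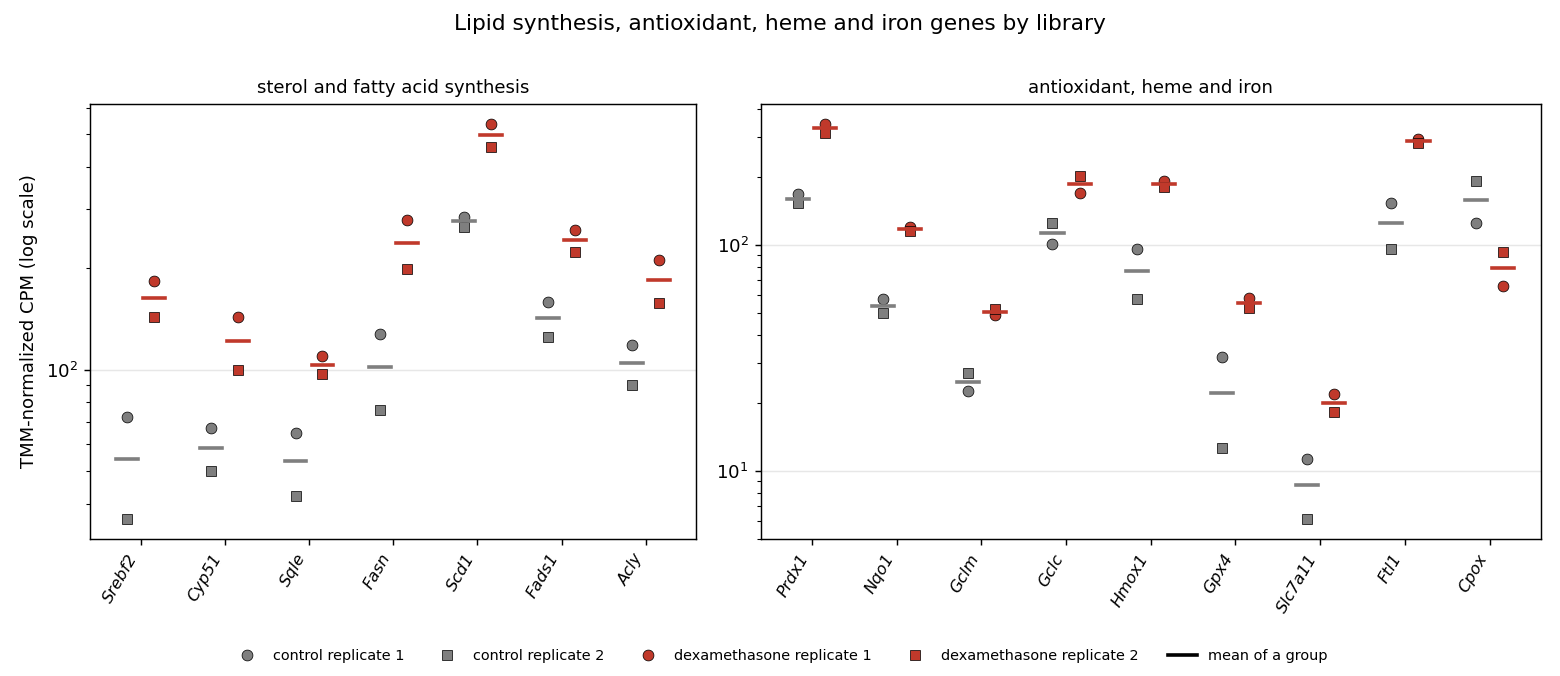
TMM-normalized CPM (log axis) in each library for genes of sterol and fatty acid synthesis (left) and for antioxidant, heme and iron genes (right). Circles are replicate 1, squares replicate 2, bars group means. In every gene shown except Cpox both dexamethasone libraries lie above both control libraries, as they do for 22.6% of all genes, and in Cpox below. The genes were picked from those named, mostly for a small p in their list, so this pattern follows partly from the choice. Gss, which overlaps, and Nfe2l2, which was lower, are not shown.

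Cxcl5 was the 1 inflammatory gene called. Of 20 tested inflammatory and chemokine genes, 6 were lower and 2 higher at an unadjusted p under 0.05, beside 5.33% and 5.61% of all genes (median -0.23). DESeq2 called 4, all lower. Without control replicate 2, 3 were called, all lower. For the inflammatory list, 2 were higher and 8 lower without control replicate 2 (median -0.32), and 1 and 7 with the GC trend removed (median -0.27). Ccl7, a monocyte chemokine, was at 92.6 and 95.5 CPM in control and 43.5 and 58.5 CPM in dexamethasone (log2 fold change -0.88 ± 0.22, DESeq2 adjusted p = 0.0351). Its neighbour on chromosome 11, Ccl2, was at 33.2 and 46.03 CPM in control and 19.1 and 16.1 CPM in dexamethasone (-1.17 ± 0.30), and the interferon-induced Cxcl10 at 41.1 and 55.4 CPM in control and 22.6 and 23.98 CPM in dexamethasone (-1.05 ± 0.27). Ptgs2 (COX-2), the inducible enzyme of prostaglandin synthesis and a classical glucocorticoid-repressed gene, was at 196 and 185 CPM in control and 128 and 107 CPM in dexamethasone (-0.70 ± 0.17, -0.42 with the GC trend removed, adjusted p = 0.0083 without control replicate 2). The groups did not overlap for any of these 4 genes. The 2 members with positive fold changes at that threshold were also chemokines, were not called and are named after their values were seen. Ccl5, which attracts T cells, was at 18.2 and 12.2 CPM in control and 31.6 and 37.1 CPM in dexamethasone (log2 fold change 1.17, adjusted p = 0.291), and Cx3cl1 (fractalkine) at 185 and 151 CPM in control and 271 and 226 CPM in dexamethasone (0.57, 0.24 with the GC trend removed, adjusted p = 0.33 from all 4 libraries), both without overlap.

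Interferon and antigen presentation genes had 5 of 25 members higher and 1 lower at an unadjusted p under 0.05, with a median of 0.29 and none called (smallest adjusted p = 0.272). For the interferon list, 4 were higher and 1 lower without control replicate 2 (median 0.24), and 4 and 0 with the GC trend removed (median 0.19). Bst2 (tetherin) was at 32.4 and 30.1 CPM in control and 70.1 and 56.3 CPM in dexamethasone (log2 fold change 1.01 ± 0.24, DESeq2 adjusted p = 0.0365). H2-D1, a class I histocompatibility chain, was at 308 and 251 CPM in control and 409 and 397 CPM in dexamethasone (0.53 ± 0.16, 0.21 with the GC trend removed), and Irf7 at 22.4 and 16.3 CPM in control and 33.9 and 38.6 CPM in dexamethasone (0.90 ± 0.30).

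In the BMP and TGF-β pathway, 9 of 25 tested genes had a positive fold change. BMPs drive osteoblast differentiation, and gremlin 1 (Grem1) and follistatin (Fst) bind and block BMPs and activins. Of 25 tested members, 6 were lower and 2 higher at an unadjusted p under 0.05, with a median of -0.17, and the smallest adjusted p was 0.172. For the BMP list, 2 were higher and 6 lower without control replicate 2 (median -0.08), and 2 and 7 with the GC trend removed (median -0.09). Grem1 was at 527 and 442 CPM in control and 293 and 269 CPM in dexamethasone (log2 fold change -0.79 ± 0.15, DESeq2 adjusted p = 0.000595, and 3.59e-06 without control replicate 2 in edgeR). Fst was at 71.8 and 101 CPM in control and 50.7 and 32.9 CPM in dexamethasone (-1.04 ± 0.27), and Inhba, the activin A subunit, at 176 and 248 CPM in control and 134 and 139 CPM in dexamethasone (-0.63 ± 0.19, -0.36 without control replicate 2, -0.39 with the GC trend removed). Id3, a direct BMP target, was among the 2 that were higher, at 3.14 and 3.26 CPM in control and 14.2 and 10.7 CPM in dexamethasone (1.96 ± 0.53), and the other was Tgfb1, at 80.9 and 69.5 CPM in control and 110.4 and 131 CPM in dexamethasone (0.68 ± 0.19).

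In the Wnt pathway, 2 of 21 tested genes were lower and 1 higher at an unadjusted p under 0.05, with a median of 0.09. For the Wnt list, 2 were higher and 1 lower without control replicate 2 (median -0.02), and 1 and 2 with the GC trend removed (median -0.05). The sign of its median thus turned. Rspo2, an R-spondin that strengthens Wnt signalling, was at 53.6 and 72.5 CPM in control and 27.8 and 27.1 CPM in dexamethasone (log2 fold change -1.20 ± 0.25, DESeq2 adjusted p = 0.0111, and 0.0554 without control replicate 2 in edgeR). The other lower gene, Dkk2, an inhibitor of Wnt signalling, had 12 and 33 reads in control and 1 and 0 reads in dexamethasone. The Wnt coreceptor gene Lrp5 was at 202 and 189 CPM in control and 288 and 252 CPM in dexamethasone (0.47 ± 0.16, 0.31 with the GC trend removed). Of the 8 tested signals to osteoclasts and hormone receptors, 2 were lower and 1 higher at the same threshold. For the osteoclast list, 1 was higher and 2 lower without control replicate 2 (median -0.19, against -0.13 from all 4 libraries), and 0 and 3 with the GC trend removed (median -0.17). Tnfrsf11b, which encodes osteoprotegerin, the decoy that keeps RANKL from osteoclast precursors, was at 115 and 86.6 CPM in control and 57.8 and 54.97 CPM in dexamethasone (-0.84 ± 0.21, DESeq2 adjusted p = 0.0411, and 0.00151 without control replicate 2 in edgeR). Igf1, the growth factor, was at 49.4 and 61.7 CPM in control and 34.7 and 33.1 CPM in dexamethasone (-0.71 ± 0.24, -0.46 with the GC trend removed, adjusted p = 0.356), the 1 of 13 genes of its axis past an unadjusted p under 0.05. For the insulin-like growth factor list, 1 was higher and 1 lower without control replicate 2 (median -0.07, against 0.01 from all 4 libraries), and 0 and 0 with the GC trend removed (median 0). In the hedgehog pathway 1 of 8 was higher, Gli1, at 6.44 and 5.7 CPM in control and 17.6 and 14.5 CPM in dexamethasone (1.40 ± 0.45), with a list median of 0. For the hedgehog list, 1 was higher and 1 lower without control replicate 2 (median -0.05), and 1 and 1 with the GC trend removed (median -0.06).

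Matrix genes were examined as collagen chains, collagen processing enzymes and proteases. Of 17 collagen chains, 6 were higher and 1 lower at an unadjusted p under 0.05 (median 0.19). For the collagen chain list, 8 were higher and 1 lower without control replicate 2 (median 0.22), and 1 and 1 with the GC trend removed (median 0.03). Col5a3 was at 131 and 98.8 CPM in control and 188 and 191 CPM in dexamethasone (log2 fold change 0.72 ± 0.18, 0.32 with the GC trend removed), and Col12a1, the 1 lower chain, at 4059 and 4600 CPM in control and 3485 and 3428 CPM in dexamethasone (-0.33 ± 0.13). Collagen processing genes had 4 of 19 higher and none lower, led by the lysyl hydroxylase Plod3 at 58.1 and 46.2 CPM in control and 90.2 and 92.5 CPM in dexamethasone (0.81 ± 0.21, 0.46 with the GC trend removed). For the collagen processing list, 5 were higher and 0 lower without control replicate 2 (median 0.12, against 0.33 from all 4 libraries), and 5 and 2 with the GC trend removed (median 0.12). Of 17 tested proteases and inhibitors, 5 were lower and 2 higher. For the protease list, 2 were higher and 4 lower without control replicate 2 (median 0.04, against 0.18 from all 4 libraries), and 1 and 4 with the GC trend removed (median 0.02). The aggrecanase Adamts5 was at 75.4 and 117 CPM in control and 52.6 and 47.8 CPM in dexamethasone (-0.93 ± 0.24, -0.58 without control replicate 2) and the collagenase Mmp13 at 124 and 174 CPM in control and 56.3 and 98.6 CPM in dexamethasone (-0.94 ± 0.27), both called by DESeq2 (adjusted p = 0.0397 and 0.0411) but not by edgeR without control replicate 2 (adjusted p = 0.225 and 0.119).

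Genes of osteoblast differentiation and mineralization had 3 of 16 higher and 1 lower at an unadjusted p under 0.05, with a median of 0.12 and a smallest adjusted p of 0.33. For the osteoblast differentiation list, 5 were higher and 2 lower without control replicate 2 (median 0.07), and 3 and 1 with the GC trend removed (median -0.10). Dmp1, an acidic matrix phosphoprotein of the late lineage, was at 252 and 246 CPM in control and 338 and 353 CPM in dexamethasone (log2 fold change 0.47 ± 0.14), and Sparc (osteonectin), the bone matrix protein, at 869 and 769 CPM in control and 997 and 1073 CPM in dexamethasone (0.34 ± 0.14, 0.19 with the GC trend removed).

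**Figure D4:**
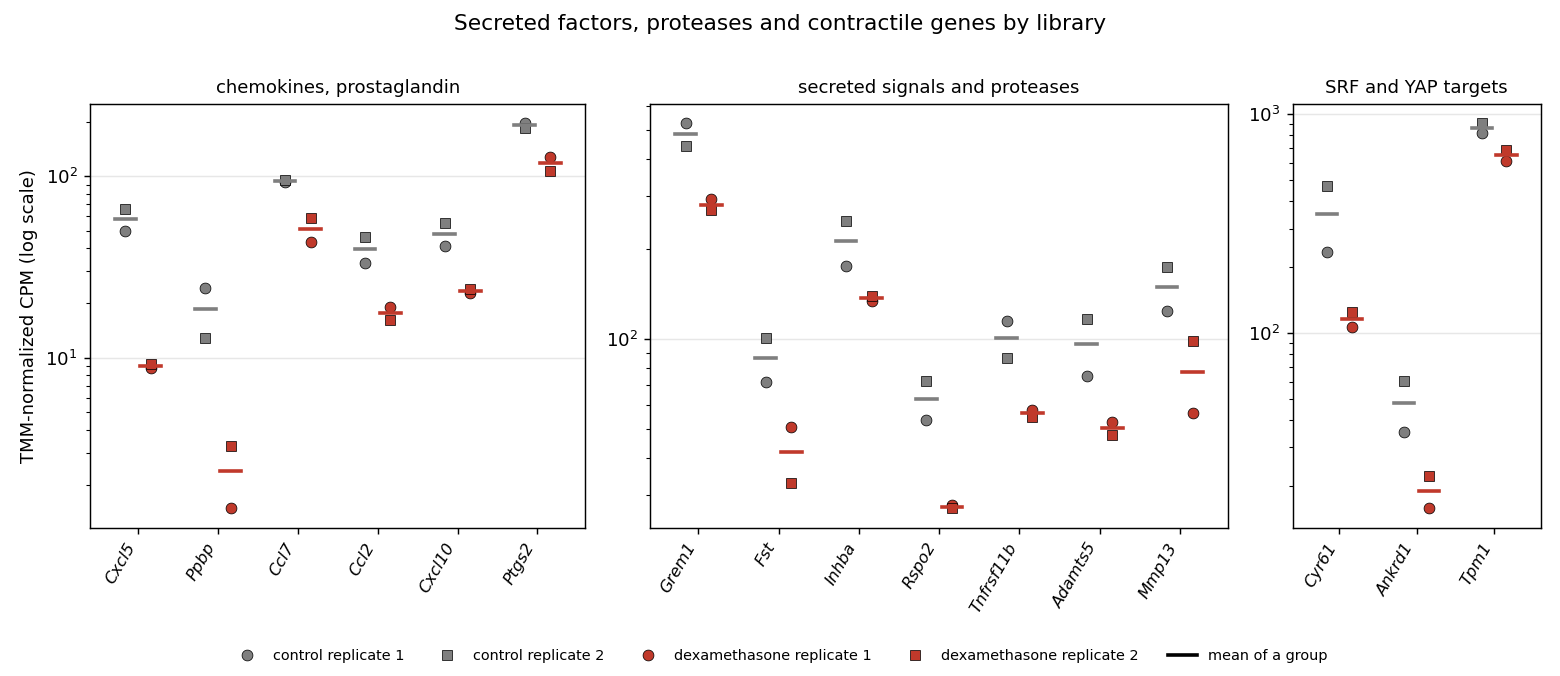
TMM-normalized CPM (log axis) in each library for chemokines and Ptgs2 (left), secreted signals and proteases (middle) and genes regulated by SRF and YAP (right). Circles are replicate 1, squares replicate 2, bars group means. The 16 genes were picked from those named as lower. For each of them both dexamethasone libraries lie below both control libraries, which follows partly from that choice. Members of the same lists that were higher without overlap, among them Ccl5, Cx3cl1, Id3 and Lrp5, are not shown.

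Contractile and SRF target genes had 4 of 23 lower and none higher at an unadjusted p under 0.05, with a median of -0.06. SRF and the YAP proteins transmit tension of the cytoskeleton to the nucleus. For the contractile list, 0 were higher and 5 lower without control replicate 2 (median -0.15), and 0 and 6 with the GC trend removed (median -0.16). Cyr61 (CCN1), a matricellular YAP target, was at 234 and 469 CPM in control and 106 and 125 CPM in dexamethasone (log2 fold change -1.60 ± 0.27, DESeq2 adjusted p = 1.23e-06). Control replicate 2 held the highest value, and without it the log2 fold change was -1.01 (adjusted p = 2.95e-05). Ankrd1 was at 35.5 and 60.1 CPM in control and 15.8 and 22.2 CPM in dexamethasone (-1.33 ± 0.33) and Tpm1, a tropomyosin, at 817 and 909.7 CPM in control and 614 and 689 CPM in dexamethasone (-0.41 ± 0.14). Of 20 immediate early genes, 3 were lower and 1 higher. For the immediate early list, 1 was higher and 5 lower without control replicate 2 (median -0.23, against 0 from all 4 libraries), and 0 and 5 with the GC trend removed (median -0.27). Jun, the AP-1 subunit, was at 789.9 and 644 CPM in control and 506 and 453 CPM in dexamethasone (-0.58 ± 0.15, adjusted p = 9.91e-05 without control replicate 2), and Klf6 at 293 and 321 CPM in control and 190.1 and 210.1 CPM in dexamethasone (-0.62 ± 0.15, -0.38 with the GC trend removed).

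Transcripts encoded by mitochondrial DNA took a smaller share of counts in dexamethasone. Their share of all counts was 7.46% and 8.62% in control and 5.55% and 5.78% in dexamethasone. Of 11 tested, all had a negative fold change, 8 were lower at an unadjusted p under 0.05, 2 were called, and the median was -0.80. DESeq2 called 7, as did edgeR without control replicate 2. For the mitochondrially encoded list, 0 were higher and 8 lower without control replicate 2 (median -0.74), and 0 and 6 with the GC trend removed (median -0.43). The median GC content of these genes was 37.6%. mt-Nd5 was at 13530 and 14764 CPM in control and 8126 and 8153 CPM in dexamethasone (log2 fold change -0.80 ± 0.12, -0.43 with the GC trend removed), mt-Nd4 at 6512 and 6908 CPM in control and 3766 and 4017 CPM in dexamethasone (-0.79 ± 0.13, -0.33 with the GC trend removed), and mt-Nd6, whose gene overlaps mt-Nd5 on the other strand, at 1224 and 1992 CPM in control and 837 and 710.0 CPM in dexamethasone (-1.06 ± 0.21, -0.66 without control replicate 2, -0.56 with the GC trend removed). Of nuclear-encoded respiratory chain genes, 3 of 32 were higher and none lower, with a median of 0.19. For the nuclear-encoded respiratory list, 2 were higher and 0 lower without control replicate 2 (median 0.17), and 4 and 2 with the GC trend removed (median 0.23). The difference between the 2 lists was not tested.

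Of 8 tested genes listed as abundant nuclear and ribosomal-like RNAs, noncoding except the protein-coding Lars2, 5 were lower and 1 higher at an unadjusted p under 0.05, with a median of -0.82. For the nuclear RNA list, 0 were higher and 3 lower without control replicate 2 (median -0.35), and 1 and 5 with the GC trend removed (median -0.64). Malat1 was at 796 and 1429 CPM in control and 569 and 671 CPM in dexamethasone (log2 fold change -0.84 ± 0.23, -0.35 without control replicate 2), with its highest value in control replicate 2. Gm26917, which lies beside Gm42418 on chromosome 17, was the 1 higher, at 6124 and 2640 CPM in control and 11063 and 7720 CPM in dexamethasone (1.10 ± 0.31, 0.62 without control replicate 2, 1.85 without control replicate 1, 0.63 with the GC trend removed), with its lowest value in control replicate 2. The list summed to 1.05% and 0.927% of counts in control and 1.29% and 0.988% in dexamethasone. Over gene types, 59 of 759 tested TEC loci were lower (7.77%, against 5.33% of all genes), with a median of -0.24 that became -0.03 with the GC trend removed.

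Genes of cytosolic ribosomal proteins had mostly small, positive fold changes. Of 82 tested, 31 were higher and none lower at an unadjusted p under 0.05, with a median of 0.26, and 70 had a positive fold change. None was called (smallest adjusted p = 0.256), and DESeq2 called 4. For the ribosomal protein list, 27 were higher and 1 lower without control replicate 2 (median 0.18), and 32 and 1 with the GC trend removed (median 0.25). Rps15 was at 189 and 149 CPM in control and 317 and 259.7 CPM in dexamethasone (log2 fold change 0.77 ± 0.18) and Rps27 at 21.95 and 14.9 CPM in control and 46.9 and 33.8 CPM in dexamethasone (1.13 ± 0.32). Many pseudogenes resemble these genes, so single values are less certain.

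**Figure D5:**
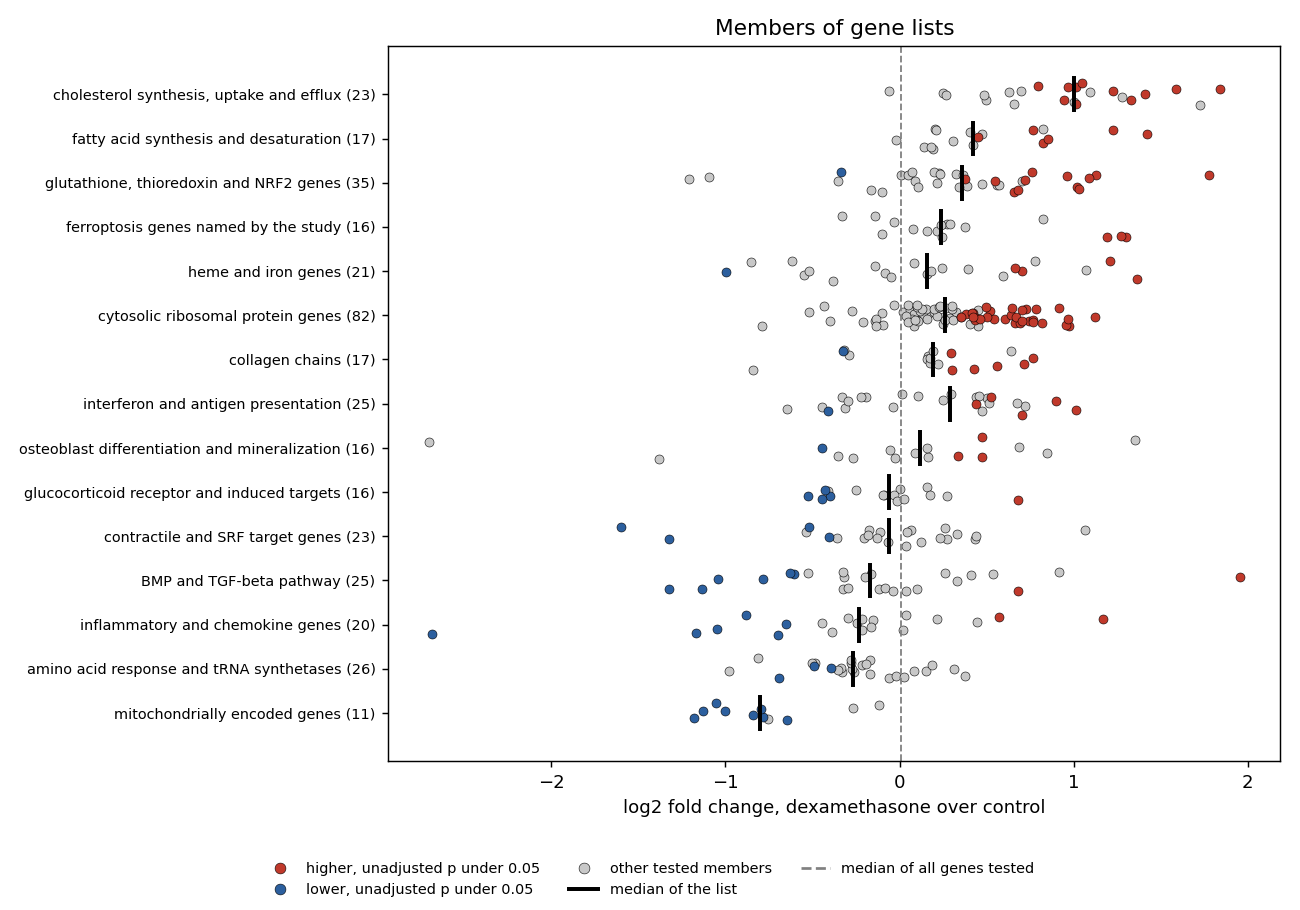
Log2 fold change of each tested member (points) of 15 gene lists, with the number tested in parentheses. Red and blue mark an unadjusted p under 0.05, black bars the list medians and the dashed line the median of all genes tested (0.01). Cholesterol genes centre on 1 and mitochondrially encoded genes on -0.80.

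None of 13 heat shock genes was called by edgeR (smallest adjusted p = 0.231). Hspb8, a small heat shock protein, was at 22.1 and 17.9 CPM in control and 45.5 and 48.3 CPM in dexamethasone (log2 fold change 1.22 ± 0.27, DESeq2 adjusted p = 0.0245), and its partner Bag3 at 165 and 137 CPM in control and 238 and 232 CPM in dexamethasone (0.63 ± 0.16, 0.32 with the GC trend removed, DESeq2 adjusted p = 0.0455, and 0.0753 without control replicate 2 in edgeR). Hsp90aa1, which holds the glucocorticoid receptor ready for its ligand, was at 777 and 939 CPM in control and 566 and 569.5 CPM in dexamethasone (-0.59 ± 0.15, DESeq2 adjusted p = 0.0166). In all, 2 of the 13 were higher and 1 lower at an unadjusted p under 0.05, beside 5.61% and 5.33% of all genes. For the heat shock list, 2 were higher and 1 lower without control replicate 2 (median -0.05, against -0.05 from all 4 libraries), and 2 and 1 with the GC trend removed (median -0.15). Unfolded protein response genes had 2 of 22 higher and 3 lower. For the unfolded protein list, 1 was higher and 1 lower without control replicate 2 (median 0.06, against -0.02 from all 4 libraries), and 0 and 0 with the GC trend removed (median 0.07).

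Of 23 glycolysis and hypoxia genes, 21 had a positive fold change, and 6 were higher and 1 lower at an unadjusted p under 0.05, with a median of 0.25. For the glycolysis list, 5 were higher and 2 lower without control replicate 2 (median 0.09), and 5 and 1 with the GC trend removed (median 0.16). Aldoa, the aldolase, was at 548 and 419.8 CPM in control and 789 and 711 CPM in dexamethasone (log2 fold change 0.63 ± 0.16, 0.36 with the GC trend removed), the glucose carrier gene Slc2a1 at 231 and 124 CPM in control and 319 and 277 CPM in dexamethasone (0.74 ± 0.25, 0.37 without control replicate 2, 1.28 without control replicate 1), and the lower gene was Hif1a, at 895 and 1202 CPM in control and 645 and 729.5 CPM in dexamethasone (-0.61 ± 0.17, -0.38 without control replicate 2, -0.34 with the GC trend removed). Amino acid response and tRNA synthetase genes had 3 of 26 lower and none higher, among them Iars, at 144 and 132 CPM in control and 79.1 and 92.1 CPM in dexamethasone (-0.69 ± 0.18). For the amino acid list, 0 were higher and 9 lower without control replicate 2 (median -0.29, against -0.27 from all 4 libraries), and 0 and 6 with the GC trend removed (median -0.26). Cell cycle genes had 3 of 35 lower and none higher, beside 5.33% and 5.61% of all genes, and 22 had a positive fold change. The lower genes included Cdkn1b (p27), which arrests the cycle, at 281 and 369.7 CPM in control and 225 and 227 CPM in dexamethasone (-0.53 ± 0.17, -0.31 without control replicate 2, -0.29 with the GC trend removed), and Ccne2 at 19.3 and 17.5 CPM in control and 10.2 and 8.04 CPM in dexamethasone (-1.01 ± 0.40). For the cell cycle list, 1 was higher and 2 lower without control replicate 2 (median 0.02, against 0.10 from all 4 libraries), and 2 and 2 with the GC trend removed (median 0.10). Of 16 p53 targets, 2 were lower and 1 higher, with Mdm2 at 795 and 1154 CPM in control and 517 and 586 CPM in dexamethasone (-0.82 ± 0.18, -0.52 without control replicate 2, DESeq2 adjusted p = 0.00243). For the p53 list, 2 were higher and 2 lower without control replicate 2 (median 0.17, against -0.11 from all 4 libraries), and 0 and 3 with the GC trend removed (median 0.02).

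In the remaining lists, counts at an unadjusted p under 0.05 were 5 higher and 2 lower of 28 autophagy and lysosome genes, 1 and 0 of 18 genes of the Bcl2 family, 0 and 1 of 8 metallothionein and zinc genes, and 2 and 1 of 15 clock genes. For the autophagy list, 2 were higher and 2 lower without control replicate 2 (median 0.06, against 0.14 from all 4 libraries), and 2 and 2 with the GC trend removed (median 0.15). For the Bcl2 family list, 2 were higher and 2 lower without control replicate 2 (median 0.16, against 0.06 from all 4 libraries), and 1 and 2 with the GC trend removed (median 0.12). For the metallothionein list, 0 were higher and 2 lower without control replicate 2 (median 0.09, against 0.11 from all 4 libraries), and 0 and 0 with the GC trend removed (median 0.16). For the clock list, 5 were higher and 1 lower without control replicate 2 (median -0.10, against 0 from all 4 libraries), and 1 and 2 with the GC trend removed (median -0.16). The lower clock gene was Bhlhe41, at 145 and 225 CPM in control and 109.8 and 109 CPM in dexamethasone (log2 fold change -0.76 ± 0.21, -0.40 without control replicate 2). None of these 4 lists held a gene called by edgeR.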

How the data were processed

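RNA of MC3T3-E1 Subclone 14 cells was sequenced. The authors aligned the reads to GRCm38 with HISAT2 as a stranded library and deposited raw counts per gene from HTSeq (version 0.6.1 in the submitters' processing notes, which also name DESeq2 1.26.0), without normalization. Whether HTSeq counted by strand is not given in the sources used here. The authors also deposited the FPKM of each gene, computed from these counts. A transcript table and the 2 EPC-EV libraries were not used for the comparison, except that the latter entered 1 alternative.

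Groups were taken from the sample labels. Counts were fitted with edgeR 4.0.16 (filterByExpr, TMM, robust quasi-likelihood test) and limma 3.58.1 in R 4.3.3, and p-values were adjusted over all 12879 genes by Benjamini-Hochberg. The standard error is the log2 fold change divided by the square root of F. Alternatives were DESeq2 1.42.0, other normalizations (RLE, upper quartile, library totals) and filters (none, a mean of at least 5 CPM), all 6 libraries in 1 fit, a replicate block, non-robust dispersions, mitochondrially encoded genes left out, limma on log2(FPKM + 1), each library left out and, chosen after seeing the data, removal of a loess trend (span 0.4) on GC content and length. The 95% intervals come from the edgeR fit and include the spread between libraries. Coordinates are of GRCm38 (GENCODE release 21), and promoters are from RefSeq.

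Named genes were those called, the 12 largest rises and 12 largest falls among genes with an unadjusted p under 0.05, a mean of at least 5 CPM and no overlap, up to 5 members of each list with the smallest p, the ferroptosis genes of the study, the treatment check and the markers. Hmgcs1, Nfe2l2, Abca1, Ccl5 and Cx3cl1 were named after their values were seen. Genes and lists were chosen with earlier results of these data known. Some genes that these rules name are not reported here.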

Additional observations from a re-analysis of the deposited data

How the results depend on the processing

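The number of called genes moved with the processing. Against 7 called genes, 248 were called without a filter, 134 by DESeq2, 1 without mitochondrially encoded genes, 1 with the GC and length trend removed and 0 by limma on log2(FPKM + 1), where 1464 had an unadjusted p under 0.05. Leaving out 1 library gave 9 to 2200 calls, the highest without control replicate 1. The 182 genes past the threshold of the study's methods became 85 with a mean of at least 5 CPM, 292 with all 6 libraries in 1 fit, 66 by limma and 395 at a log2 fold change beyond 1. Leaving out 1 library gave 134 to 870. The cause was not tested. Upper quartile and RLE normalization, library totals, a mean of at least 5 CPM, all 6 libraries in 1 fit and non-robust dispersions gave 7 to 10 calls. The 7 genes were among them except with all 6 libraries, where 4 of the 7 were among 9 calls, and mt-Cytb, mt-Nd2 and Gm10925 had adjusted p of 0.348, 0.195 and 0.127. With the replicate number as a block, 43 genes were called and 175 passed the methods threshold. The numbers are only in the titles, and same-numbered libraries' deviations from the group means correlated at 0.081 across genes, so they were not treated as pairs.

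Among the 105 genes whose fold changes are given, 6 changed sign. Other genes that the naming rules pick also did, among them Postn, from -0.46 to 0.09, and Mt1, from 0.43 to -0.03, without control replicate 2. Tsc22d3 was 0 by limma and -0.32 to 0.22 with 1 library left out. Per1 was -0.01 with RLE normalization, with a mean of at least 5 CPM and by DESeq2, -0.24 to 0.32 with 1 library left out, and -0.44 with the GC trend removed. Sgk1 was -0.54 to 0.13 with 1 library left out, the highest without control replicate 1. Col1a1 and Col1a2 were -0.17 and -0.09 with the GC trend removed. Spp1 was 0.05 with library totals and by limma, 0.06 without control replicate 2 and 0.21 with the GC trend removed. Over these genes and all alternatives, 1367 values kept direction and side of the threshold, 262 gained a call, 28 lost one and these 16 changed sign.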
